A study of Homo sapiens with 4 samples.

Results

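A set of 10 heat shock protein genes was followed in SUM159, a triple-negative breast cancer cell line, by messenger RNA sequencing. They were chosen by name as HSPA1A, HSPA1B, HSPH1, DNAJB1, HSPB1 and HSP90AA1 for the heat-inducible cytosolic chaperones, HSPA8 and HSP90AB1 for the constitutive cytosolic ones, and HSPD1 and HSPE1 for the mitochondrial ones. All 10 matched a gene identifier among the 60279 genes listed, and all 10 were among the 14269 genes tested, which had a mean of at least 1 CPM (counts per 1e6 gene reads) over the 4 libraries. Each condition was 1 library: untreated cells, cells given palbociclib, cells given indisulam, and cells given both drugs (the combination). Palbociclib is an inhibitor of CDK4 and CDK6, kinases that drive entry into the cell cycle, and indisulam joins the splicing factor RBM39 to a ubiquitin ligase receptor, DCAF15, so that RBM39 is degraded. Per the labels the doses were 0.5 µM palbociclib and 2 µM indisulam for 10 days, whereas the series text gives 2 µM, 3 µM and 16 h. The study describes both settings as separate sequencing experiments in SUM159, and aligned the short treatment with HISAT2, a tool that the processing notes of these libraries do not name. Since the labels and the series text differ on which experiment these libraries belong to, both settings are given. The series text speaks of technical duplicates, and whether a library pools them is not given. All cells were grown in DMEM/F12 medium with serum, insulin and hydrocortisone, and no genetic change is named for any group. In bulk RNA, fewer cells expressing a gene and less RNA per cell cannot be told apart.

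Heat shock proteins are molecular chaperones that bind unfolded protein and help it to fold. HSP70 proteins work in cycles with a J-domain partner that delivers clients and a nucleotide exchange factor that releases them, and pass some clients on to HSP90. Heat and other protein-damaging stress activate the transcription factor HSF1, which binds heat shock elements, inverted repeats of the bases GAA, upstream of the inducible genes, while HSP60 and HSP10 fold imported proteins in the mitochondrial matrix.

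The upstream sequences are shown for 6 genes, the closely related pairs HSPA1A with HSPA1B and HSP90AA1 with HSP90AB1, and the genes HSPA8 and HSPH1, which had the largest changes among the members. They are the 250 bases before a transcription start of RefSeq on GRCh38.p14, on the strand of the gene, and capitals mark heat shock elements. For HSP90AA1 and HSP90AB1, which have several starts, only the start with capitals is shown. HSP90AA1 start 1 and HSP90AB1 starts 1 and 2 have none, and which start these cells used was not tested. The element was searched as GAANNTTC or TTCNNGAA (2 units) and as GAANNTTCNNGAA or TTCNNGAANNTTC (3 units), on both strands, with overlapping matches counted, so that a 3-unit match also holds 2-unit matches.
HSPA1A, chr6:31815293-31815542, plus strand: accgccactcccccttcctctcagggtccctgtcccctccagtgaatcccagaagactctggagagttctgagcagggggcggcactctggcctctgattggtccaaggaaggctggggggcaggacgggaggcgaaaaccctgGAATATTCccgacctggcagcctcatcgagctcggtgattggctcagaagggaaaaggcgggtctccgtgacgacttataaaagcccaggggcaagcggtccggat
HSPA1B, chr6:31827488-31827737, plus strand: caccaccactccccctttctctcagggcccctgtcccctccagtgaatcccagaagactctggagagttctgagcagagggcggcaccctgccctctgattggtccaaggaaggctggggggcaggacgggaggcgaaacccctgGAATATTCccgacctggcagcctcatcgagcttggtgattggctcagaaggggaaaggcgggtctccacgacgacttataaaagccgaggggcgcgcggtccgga
HSPA8, chr11:123062137-123062386, minus strand: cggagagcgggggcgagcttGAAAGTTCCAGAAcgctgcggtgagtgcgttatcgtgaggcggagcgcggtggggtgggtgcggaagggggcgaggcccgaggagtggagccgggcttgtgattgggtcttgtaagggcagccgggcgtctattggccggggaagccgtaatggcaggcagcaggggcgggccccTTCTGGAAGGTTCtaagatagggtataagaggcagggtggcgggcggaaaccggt
HSPH1, chr13:31162389-31162638, minus strand: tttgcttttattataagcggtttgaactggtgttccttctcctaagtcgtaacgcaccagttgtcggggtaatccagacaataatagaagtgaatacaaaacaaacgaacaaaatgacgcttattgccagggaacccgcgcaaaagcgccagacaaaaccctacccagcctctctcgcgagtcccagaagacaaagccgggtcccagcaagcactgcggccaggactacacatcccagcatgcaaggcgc
HSP90AA1, start 2, chr14:102087045-102087294, minus strand: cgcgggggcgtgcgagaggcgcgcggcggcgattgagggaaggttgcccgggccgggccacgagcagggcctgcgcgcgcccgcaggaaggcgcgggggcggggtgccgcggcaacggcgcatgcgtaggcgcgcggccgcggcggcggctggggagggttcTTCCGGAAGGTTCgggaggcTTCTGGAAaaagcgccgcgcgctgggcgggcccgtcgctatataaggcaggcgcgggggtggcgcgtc
HSP90AB1, start 3, chr6:44247693-44247942, plus strand: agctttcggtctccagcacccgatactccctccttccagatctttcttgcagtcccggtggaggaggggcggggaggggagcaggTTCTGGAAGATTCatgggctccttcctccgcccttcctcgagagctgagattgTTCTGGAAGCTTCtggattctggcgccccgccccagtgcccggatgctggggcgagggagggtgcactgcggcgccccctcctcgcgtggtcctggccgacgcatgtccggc

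At any of their RefSeq starts, 8 of the 10 members had a 2-unit element, against 13.96% of the 27305 genes with an entry, and 4 members (HSPA8, HSP90AA1, HSP90AB1 and HSPD1) had a 3-unit element, against 0.557%. No match was found for HSPH1 or HSPE1, which says only that these letters are not in the 250 bases searched. For HSPE1 those bases, chr2:197500129-197500378, lie almost wholly within the gene model used for the counts (chr2:197500140-197503449). The elements of HSPD1 lie in chr2:197499841-197500090, shortly before that HSPE1 gene model, and were not counted for HSPE1. HSPA1A and HSPA1B have the same 8 capital letters in nearly the same setting. The matches describe the sequence and were not used in any comparison of expression.

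In the untreated library the 10 genes together took 0.430% of the 12555908 gene reads. With palbociclib their share was 0.599%, with indisulam 0.503% and with both drugs 0.533%, in libraries of 12691481, 16712174 and 14359529 gene reads. The share was thus higher in all 3 treated libraries, and the constitutive pair HSPA8 and HSP90AB1 accounted for more than the 6 inducible genes in every library, with 0.256% against 0.112% in untreated cells and 0.381% against 0.165% under palbociclib. HSPA8 had the largest gain in CPM of the members in each treated library, so the summed share does not describe a rise of every member. Within the constitutive pair, palbociclib went with opposite moves, 992 to 2521 CPM for HSPA8 and 1572 to 1286 CPM for HSP90AB1. HSPD1 and HSPE1 together held between 0.0531% and 0.0613%. Mitochondrially encoded genes took 4.90 to 7.33% of gene reads and were highest in the palbociclib library. The line's markers VIM (2642 to 4598 CPM), CD44 (706 to 883 CPM), KRT8 and KRT18 were present, and ESR1 (4 to 16 reads) and PGR (0 to 3 reads) were near 0. ERBB2 was detected at 110 to 143 CPM. The leukocyte marker PTPRC (11.1 to 17.5 CPM) and the endothelial marker PECAM1 (15.2 to 40.9 CPM, highest under palbociclib) were also detected, and their part in the results was not tested.

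**Figure D1:**
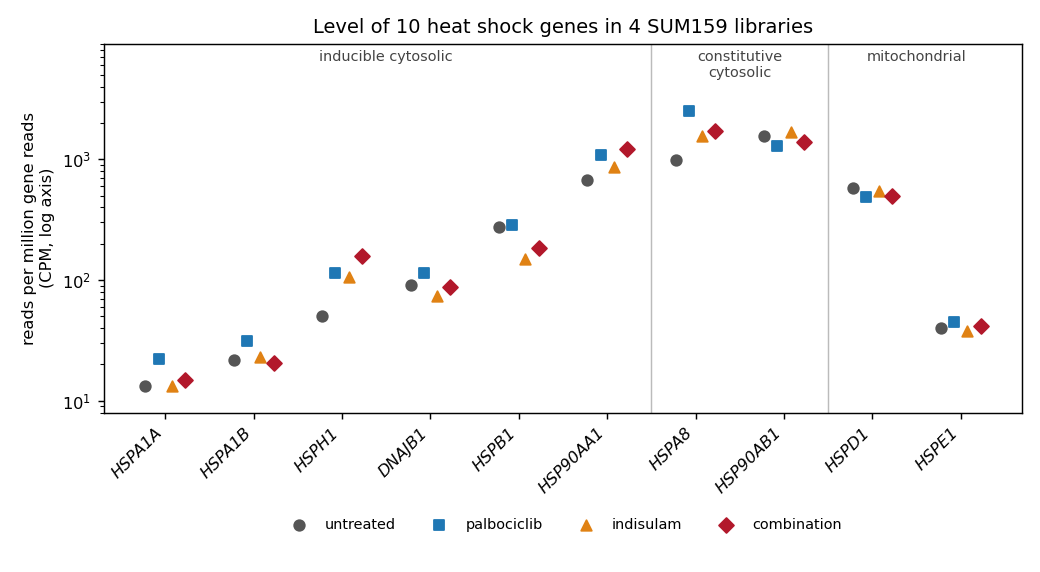
Level of the 10 heat shock genes in the 4 SUM159 libraries, in CPM on a log axis, with 1 point per library and the genes grouped by class. HSPA8 rose from 992 CPM untreated to 2521 CPM under palbociclib, while HSP90AB1, HSPD1 and HSPE1 differed by at most 1.3-fold between libraries.

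Levels of different genes were compared per kilobase of the canonical transcript. In untreated cells HSP90AB1 was highest with 615 CPM per kb, followed by HSPA8 (438), HSPB1 (356), HSPD1 (255), HSP90AA1 (208), HSPE1 (71.3), DNAJB1 (40.9), HSPH1 (9.54), HSPA1B (8.73) and HSPA1A (5.51 CPM per kb). Under palbociclib HSPA8 was first with 1114 CPM per kb and HSP90AB1 second with 503 CPM per kb. The places of the lowest 3 genes depended on how reads were assigned. Of all 65-base stretches of HSPA1A, 74.3% also occur in HSPA1B, and of HSPA1B 70.8% also occur in HSPA1A, so that reads of 65 bases, the shorter of the read lengths in the study's methods, could not be placed uniquely there. Counted over stretches found only once in the genome, untreated HSPA1A had 22.0, HSPA1B 30.7 and HSPH1 9.66 CPM per kb, so that HSPH1 was below both. Lengths from all exons merged, in place of the canonical transcript, lowered the untreated values by over 1.5 times for 7 genes, to 204.5 for HSPA8, 170.2 for HSPB1, 132 for HSP90AA1, 75.1 for HSPD1, 21.8 for HSPE1, 11.2 for DNAJB1 and 5.96 CPM per kb for HSPH1. HSP90AB1 was still first untreated (528) and HSPA8 under palbociclib, where it led HSP90AB1 by 519.9 against 431.5 CPM per kb.

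For changes between libraries, a log2 ratio of depth-scaled reads was taken with a 95% interval from counting error, and a gene was called when it differed at least 2-fold and the interval excluded a ratio of 1. With 1 library per condition no p-value can be given, the spread between cultures was not measured, and the comparisons share libraries, the untreated one among 3 of them and the combination among 3. As a bound on that spread for a typical gene, the robust SD over all tested genes of the departure from additivity, defined with the joint results further on, was divided by the square root of 2. It came to 0.28 log2 units at 100 CPM or more, 0.26 at 20 to 100 CPM and 0.37 at 5 to 20 CPM, and it includes any true joint effect of the drugs. The bound also assumes that the 4 libraries varied independently, since a difference shared by both libraries given the same drug cancels in the departure. A single gene may vary more than the bound between cultures, so multiples of the bound are a scale and not a test.

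The comparison of palbociclib with untreated cells asks what the kinase inhibitor does alone. Of the 10 members 2 were called higher, HSPA8 and HSPH1, and none lower, beside 5.96% of all tested genes called higher and 4.95% called lower. The median log2 ratio of the members was 0.41, against -0.02 over all tested genes. At a threshold of 1.5-fold, HSPA1A and HSP90AA1 were called as well, which made 4 of 10 members beside 25.0% of all tested genes in either direction. All 6 inducible genes had a log2 ratio above 0, as did 6884 of the 14269 tested genes, with a median of 0.60 for the inducible genes, but of these HSPH1 alone reached 2-fold. The interval of HSPB1 (log2 ratio 0.05, interval -0.02 to 0.12) included 0. HSPA1A and HSPA1B, which share most of their sequence, are not independent genes in this count.

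HSPA1A and HSPA1B encode the major stress-inducible HSP70, and their coding sequences of 1923 bases differ at 4 bases, so that their separate values are uncertain. Each is a single-exon gene on the plus strand of chromosome 6, HSPA1A at chr6:31815543-31817946 and HSPA1B at chr6:31827738-31830254. HSPA1A had 166 reads in the untreated library (13.2 CPM), 282 under palbociclib (22.2 CPM), 223 under indisulam (13.3 CPM) and 212 in the combination (14.8 CPM). HSPA1B had 276, 395, 388 and 295 reads in the same order, or 22.0, 31.1, 23.2 and 20.5 CPM. Both were highest under palbociclib alone, and the other 3 libraries lay close together. Summed, the pair was at 35.2 CPM untreated and 53.3 CPM under palbociclib, a log2 ratio of 0.60 with an interval of 0.43 to 0.77, short of a 2-fold change. Reads that did not align uniquely were left out, and these may include reads of the shared stretches. Summing does not restore them, so the level of the pair can be understated in every library. The sum with indisulam (36.6 CPM) and with both drugs (35.3 CPM) could not be told from the untreated level by counting error, with intervals of the log2 ratio of -0.12 to 0.23 and -0.18 to 0.19. HSPA6, an HSP70 gene that is nearly silent without heat, had 4 to 9 reads per library.

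HSPH1, which encodes HSP105, an HSP110 family member that acts as a nucleotide exchange factor for HSP70, lies on the minus strand at chr13:31134973-31162388 with 18 exons. It had 628 reads untreated (50.0 CPM), 1457 under palbociclib (115 CPM), 1785 under indisulam (107 CPM) and 2259 in the combination (157 CPM). All treated libraries were above the untreated one, and the combination was the highest. HSPH1 rose 2.29-fold with palbociclib (log2 ratio 1.20, interval 1.06 to 1.33) and 2.13-fold with indisulam (log2 ratio 1.09, interval 0.96 to 1.22). In the combination it rose 3.14-fold over untreated (log2 ratio 1.65, interval 1.52 to 1.78), which is 5.9 times the bound given above. No 65-base stretch of its transcript occurs elsewhere in the genome.

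DNAJB1, the J-domain partner of HSP70 also called HSP40, had 91.8 CPM untreated, 114 CPM under palbociclib, 73.2 CPM under indisulam and 88.2 CPM in the combination. Its log2 ratios to untreated were 0.31, -0.33 and -0.06, so that the single drugs gave values on either side of the untreated level, 1.20 and 1.25 times the bound for the single drugs. HSPB1, the small heat shock protein HSP27, lies at chr7:76302673-76304295 with 3 exons. It had 276 CPM untreated, 286 CPM under palbociclib, 149 CPM under indisulam and 185 CPM in the combination, so that both libraries with indisulam were below both without it. The log2 ratio of indisulam to untreated was -0.89 (interval -0.97 to -0.82), a value 3.19 times the bound but below the 2-fold threshold. The ratio of the combination to palbociclib was -0.63 (interval -0.70 to -0.56).

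HSP90AA1, the stress-inducible cytosolic HSP90, lies at chr14:102080742-102139699 on the minus strand with 11 exons in its canonical transcript. It had 671 CPM untreated, 1085 CPM under palbociclib, 857 CPM under indisulam and 1205 CPM in the combination. The libraries with palbociclib were above those without it, with log2 ratios of 0.69 (interval 0.65 to 0.73) for palbociclib and 0.84 (interval 0.81 to 0.88) for the combination against untreated. Neither reached 2-fold.

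HSPA8 encodes HSC70, the constitutive cytosolic HSP70, and is expressed from the minus strand of chr11:123057489-123063230 with 9 exons. It had 12451 reads untreated (992 CPM), 31997 under palbociclib (2521 CPM), 26150 under indisulam (1565 CPM) and 24783 in the combination (1726 CPM). The palbociclib library stood highest, and the combination was closer to indisulam alone than to palbociclib alone. HSPA8 rose 2.54-fold with palbociclib (log2 ratio 1.35, interval 1.32 to 1.38), which placed it at percentile 99.0 among the 2001 genes of at least 100 CPM. Scaled by totals without the mitochondrially encoded genes, the log2 ratio was 1.37. The ratios to untreated were 0.66 for indisulam and 0.80 for the combination, both below 2-fold. HSP90AB1, the constitutive cytosolic HSP90, had 1572, 1286, 1666 and 1392 CPM in the order untreated, palbociclib, indisulam and combination. Its highest library was 1.3 times its lowest, and the palbociclib value (log2 ratio -0.29) was close to the bound of 0.28.

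HSPD1 (HSP60) and its co-chaperonin HSPE1 (HSP10) lie on opposite strands of chromosome 2, HSPD1 at chr2:197486584-197516737 on the minus strand and HSPE1 at chr2:197500140-197503449 on the plus strand, within the span of all HSPD1 transcripts. HSPD1 had 573, 485, 543 and 497 CPM in the order untreated, palbociclib, indisulam and combination. HSPE1 had 39.7, 45.3, 37.9 and 41.3 CPM in the same order. The ratios of both genes to untreated ran from -0.24 to 0.19 on the log2 scale, all within the bound on the spread. Part of the HSPE1 transcript, 34.5%, overlaps the readthrough gene HSPE1-MOB4 on the same strand, which had 0 reads in all libraries, and reads over the overlap may have been left uncounted.

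**Figure D2:**
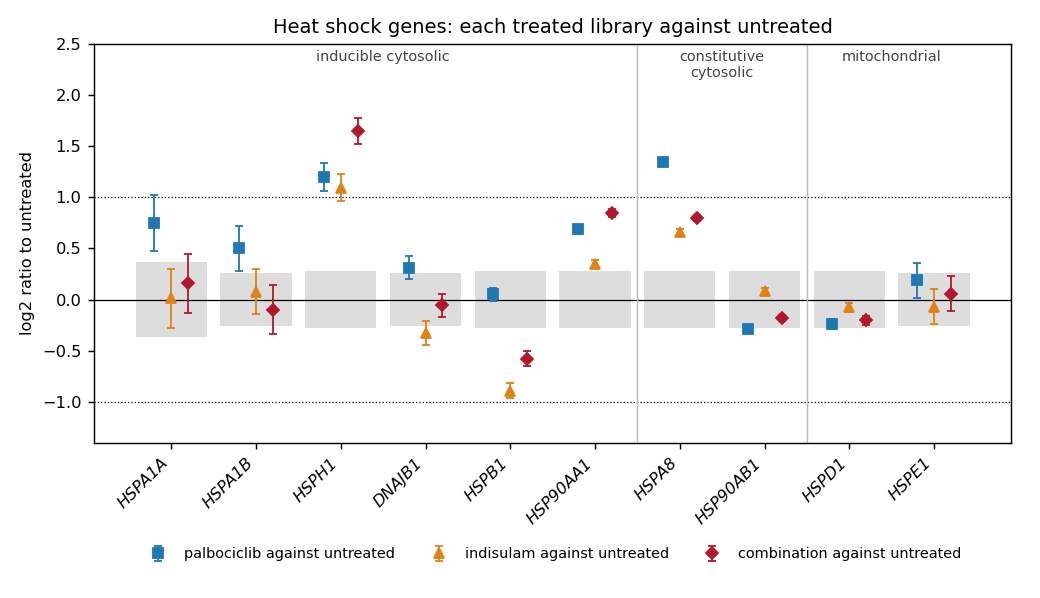
Log2 ratio of each treated library to the untreated library for the 10 heat shock genes, with 95% counting intervals as bars, dotted lines at 2-fold and gray bands for the bound on the spread of a typical gene at that level. HSPH1 was above 2-fold in all 3 libraries, HSPA8 in the palbociclib library only, and HSPB1 was lowest with indisulam at -0.89.

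The comparison of indisulam with untreated cells asks the same of indisulam. Here 1 of 10 members was called, HSPH1, and it was higher, beside 8.44% of all tested genes called higher and 6.71% lower. The median log2 ratio was 0.05 for the members and 0.06 for all tested genes. HSPA8 and HSPB1 were past 1.5-fold in opposite directions, with log2 ratios of 0.66 and -0.89, and the other 7 members were within 1.5-fold, so that 3 of 10 were past it beside 31.6% of all tested genes.

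In the combination against untreated, HSPH1 was again the one member called, higher, beside 13.0% of all tested genes called higher and 10.6% lower. The median of the members was 0.00 and that of all tested genes 0.05. HSPA8 and HSP90AA1 were past 1.5-fold but not 2-fold, which made 3 of 10 members past 1.5-fold beside 42.6% of all tested genes. Thus the combination, which had the most genes called of the 3 comparisons with untreated (3360, against 1558 for palbociclib and 2162 for indisulam), did not have more members called.

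Adding indisulam to palbociclib, the combination against palbociclib alone, called none of the 10 members, beside 9.62% of tested genes called higher and 7.40% lower. The members had a median log2 ratio of -0.25, against 0.07 over all tested genes. HSPA1A, HSPA1B, HSPA8 and HSPB1 were lower, with log2 ratios of -0.59, -0.60, -0.55 and -0.63, and HSPH1 was higher at 0.45. At 1.5-fold, 3 members (HSPA1A, HSPA1B and HSPB1) were called lower, beside 33.0% of all tested genes in either direction. Adding palbociclib to indisulam, the combination against indisulam alone, also called none at 2-fold, beside 5.09% of tested genes called higher and 3.19% lower (8.28% together), and none at 1.5-fold, beside 22.4%. The median of the members was 0.14 and the widest values were 0.56 for HSPH1, 0.49 for HSP90AA1 and -0.26 for HSP90AB1.

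The effect of each drug could be read in the absence and in the presence of the other, in pairs of libraries that have none in common. For palbociclib, 6 members (HSPA8, HSPH1, HSP90AA1, HSP90AB1, HSPD1 and DNAJB1) had the same direction both times with both counting intervals excluding a ratio of 1, beside 33.8% of all tested genes, and none had opposite directions, beside 8.09%. Such intervals narrow with the number of reads, so that these counts say little about the members as a group. The effect on HSPA8 was 1.35 without indisulam and 0.14 with it, and that on HSP90AA1 was 0.69 and 0.49. For indisulam, 5 members (HSPH1, HSP90AA1, HSP90AB1, HSPB1 and DNAJB1) had the same direction, beside 43.7% of all tested genes, and HSPA8 alone of the members had opposite ones, beside 6.33%. The values of HSPA8 were 0.66 without palbociclib and -0.55 with it. HSPB1 was lower both times, at -0.89 and -0.63.

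**Figure D3:**
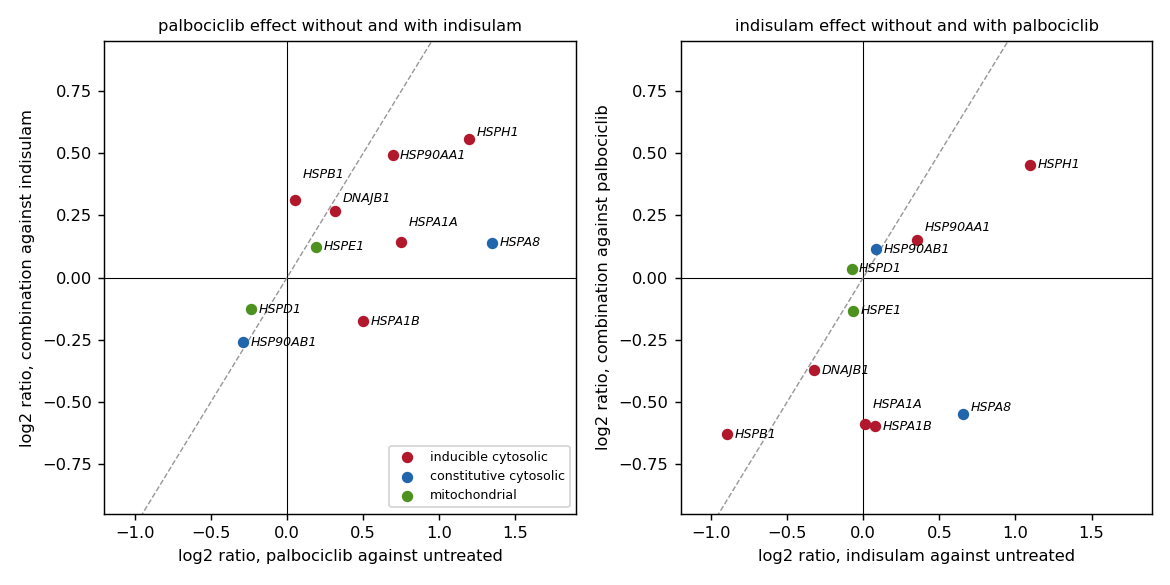
Log2 ratio for palbociclib (left) and indisulam (right) in the absence (horizontal axis) and in the presence (vertical axis) of the other drug, with 1 point per heat shock gene, colors for the gene class and a dashed line where both are equal. HSPA8 lay far below the line in both panels, at 1.35 and 0.14 for palbociclib and at 0.66 and -0.55 for indisulam. The vertical distance of a gene from the line is the same in both panels by construction, so the panels are not separate evidence.

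The departure from additivity subtracts both single-drug log2 ratios from the log2 ratio of the combination, each taken against untreated cells. By algebra it is also the effect of either drug with the other drug minus its effect without. It therefore restates the differences just given and is not a further observation. Of the 10 members 1 was called below the sum, HSPA8, and none above it, beside 3.93% of all tested genes below the sum and 4.11% above (8.05% together). The departure of HSPA8 was -1.21 (interval -1.24 to -1.17), 3.04 times the robust SD of 0.40 of genes at its level and at percentile 1.6 among them. HSPA1A, HSPA1B and HSPH1 had departures of -0.60, -0.68 and -0.64, none of which reached 2-fold. The values of HSP90AA1 (-0.20), HSPB1 (0.26), HSPD1 (0.11), HSPE1 (-0.06), DNAJB1 (-0.05) and HSP90AB1 (0.03) were within the SD for their level.

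Ratios of reads between related genes of the same library do not depend on the scaling between libraries. They are not corrected for transcript length, so they compare libraries and not the levels of different genes. HSP90AA1 had 0.427 reads per read of HSP90AB1 in untreated cells (exact 95% interval 0.416 to 0.438) and 0.514 under indisulam (0.504 to 0.525). The ratio was 0.844 under palbociclib (0.825 to 0.864) and 0.866 in the combination (0.848 to 0.884), so that both libraries with palbociclib were above both without it. Per kilobase of the canonical transcript, HSP90AA1 was still below HSP90AB1, with 336 against 503 CPM per kb under palbociclib and 373 against 545 in the combination. HSPA1A and HSPA1B together had 0.0355 reads per read of HSPA8 in untreated cells (interval 0.0322 to 0.039), and the treated libraries were all lower, with 0.0212 under palbociclib, 0.0234 under indisulam and 0.0205 in the combination. DNAJB1 had 0.0925 reads per read of HSPA8 untreated and 0.0453, 0.0468 and 0.0511 in the treated libraries, in the same order. HSPH1 had 0.0504 reads per read of HSPA8 untreated, 0.0455 under palbociclib, 0.0683 under indisulam and 0.0912 in the combination. Within the HSP70 group, therefore, the inducible pair and the J-domain partner made up a smaller part relative to HSPA8 in all treated libraries, and HSPH1 a larger part in the libraries with indisulam. These ratios share HSPA8 as denominator, which itself was higher in all treated libraries. For HSPA1A and HSPA1B, the reads left out as not uniquely aligned can also make the ratio too low in every library. In CPM the inducible pair was at 35.2 untreated and 53.3, 36.6 and 35.3 treated, and DNAJB1 at 91.8 and 114, 73.2 and 88.2. The lower ratios thus largely restate the HSPA8 values. HSPD1 had 14.4 reads per read of HSPE1 untreated, 10.7 under palbociclib, 14.3 under indisulam and 12.0 in the combination. These intervals cover counting error only.

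**Figure D4:**
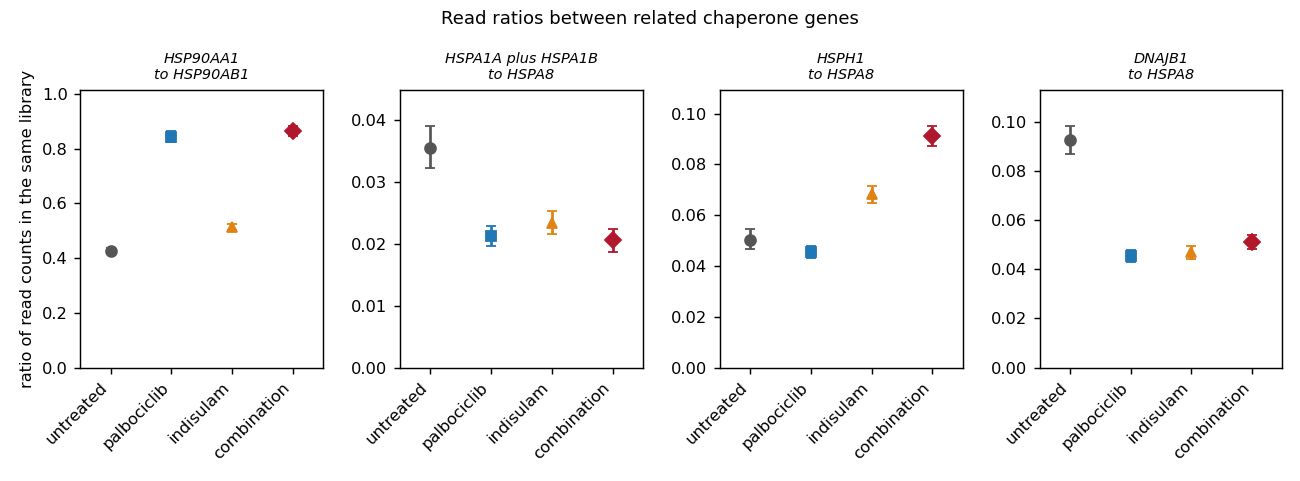
Ratio of read counts of related chaperone genes within each library, with exact 95% intervals that cover counting error, on axes that start at 0 and differ in range between the 4 panels. The HSP90AA1 to HSP90AB1 ratio was 0.844 and 0.866 in the libraries with palbociclib against 0.427 and 0.514 in those without, and HSPA1A plus HSPA1B to HSPA8 was highest in untreated cells at 0.0355, where HSPA8 itself was lowest in CPM.

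Around the members, 122 further genes of the chaperone network were listed, of which 109 were tested. They held 1 gene called higher and 0 lower with palbociclib, 2 higher and 2 lower with indisulam, and 5 higher and 2 lower in the combination against untreated. These shares, 0.917%, 3.67% and 6.42% of the tested network genes, stand beside 10.9%, 15.2% and 23.5% of all tested genes called in either direction. The list of heat shock factors, which includes HSBP1, gave 1 call in 4 tested genes. This was HSF4, which fell in the combination (18.9 CPM untreated and 7.80 CPM in the combination), beside 10.6% of all tested genes called lower there. HSF1, the factor of the heat shock response, had 76.5 CPM untreated, 58.1 under palbociclib, 77.3 under indisulam and 52.2 in the combination. HSF2 had 24.1 to 33.9 CPM and HSBP1, which encodes an HSF1-binding protein, 114 to 150 CPM.

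Among 17 tested heat-inducible genes other than the members, CHORDC1, an HSP90 co-chaperone, rose 2.94-fold with indisulam (19.0 to 55.8 CPM) and 3.26-fold in the combination (62.1 CPM). DNAJB4, a J-domain protein, rose 2.5-fold in the combination (36.4 to 91.2 CPM), and BAG3, a nucleotide exchange factor, had log2 ratios of 0.17, -0.26 and -0.14. The median log2 ratios of the list were 0.19, 0.12 and 0.29 for palbociclib, indisulam and the combination against untreated. Of 10 other HSP70 and HSP110 genes tested, HSPA2 and HSPA13 rose in the combination, 2.44-fold and 2.16-fold, and the list's median there was 0.70. HSPA5, the endoplasmic reticulum HSP70 known as BiP, had 612, 506, 561 and 666 CPM in the order untreated, palbociclib, indisulam and combination. Of 34 J-domain genes, DNAJC30 rose with palbociclib (2.03-fold) and DNAJB4 and DNAJB11, an endoplasmic reticulum J-domain protein, rose in the combination (2.20-fold for DNAJB11). DNAJA1, the J-domain gene of highest level, had 98.0, 191, 122 and 194 CPM, so that both libraries with palbociclib were higher, 1.95-fold with palbociclib and 1.98-fold in the combination, just short of a call.

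Among 20 tested HSP90 paralogs and co-chaperones, FKBP5, an HSP90-binding immunophilin and a known glucocorticoid target, fell to 426 CPM with indisulam and 310.5 CPM in the combination, from 1186 CPM untreated. CHORDC1 was the other gene of that list called. None of the 10 nucleotide exchange factors, the 14 chaperonin and prefoldin genes or the 14 mitochondrial chaperones and proteases was called in any of the 5 comparisons. HSPA9, the mitochondrial HSP70, had 237, 282, 300.0 and 406 CPM. With palbociclib the median log2 ratio was -0.34 for the mitochondrial list and -0.21 for the chaperonin list. Genes of highest level in their lists that were not called were HSP90B1, the endoplasmic reticulum HSP90 (1120 to 1417 CPM), CCT3 of the chaperonin (286 to 377 CPM) and BAG6 of the exchange factors (147 to 223 CPM). Only 2 small heat shock genes besides HSPB1 were tested. HSPB8 had 36.7 to 65.9 CPM, and CRYAB, at under 5 CPM on average, was the one called, lower with indisulam (0.33-fold) and higher in the combination than with indisulam alone.

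**Figure D5:**
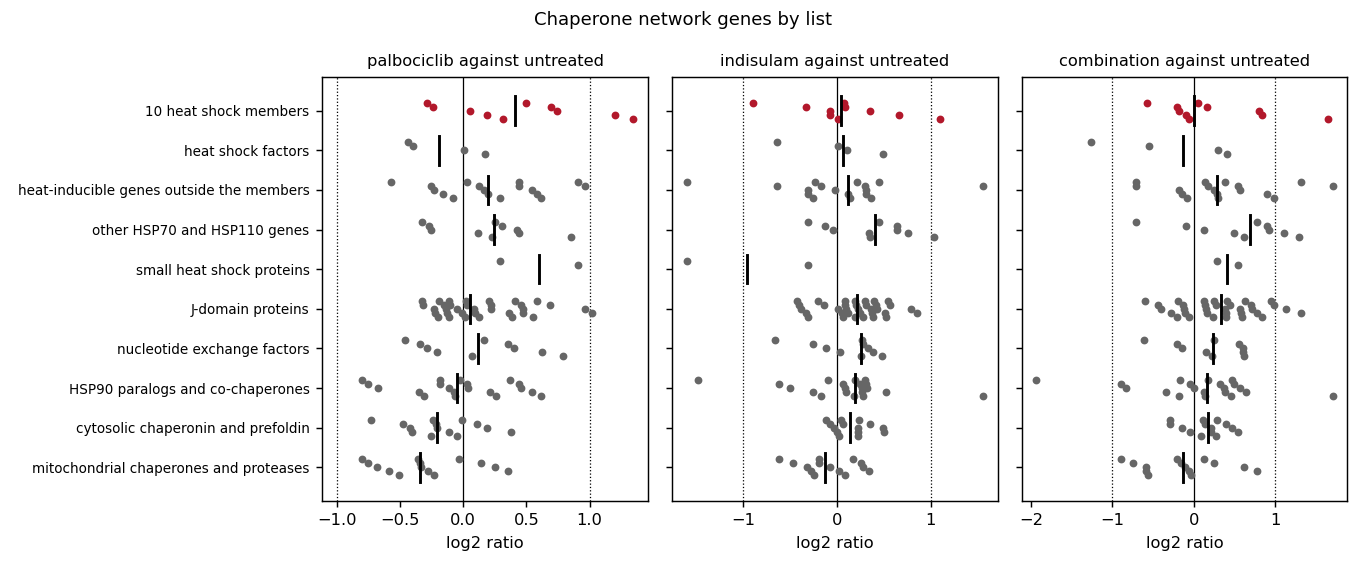
Log2 ratio to untreated of each tested gene of the chaperone lists, with 1 point per gene, black ticks at list medians, dotted lines at 2-fold and axes that differ in range between the 3 panels. Most points of the network lie inside 2-fold, with 1, 4 and 7 of 109 genes called under palbociclib, indisulam and the combination.

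Common reference genes were followed beside the members. Vinculin, tubulin and HSP90 served as blot controls and RPL13 as the PCR reference in the study, while ACTB and GAPDH were added here. VCL, the vinculin gene, had 395 to 520 CPM, with log2 ratios to untreated of 0.09, 0.31 and 0.40. RPL13 had 785, 804, 850 and 612 CPM, ACTB had log2 ratios of -0.27, 0.39 and 0.30, and GAPDH had -0.56, -0.56 and -0.68. Tubulin genes were called higher in the combination against untreated in 4 cases (TUBA1A, TUBA1B, TUBA1C and TUBB4B). In the combination against palbociclib, TUBA1B, TUBA1C and TUBB were called higher. TUBA1A was also called higher with palbociclib against untreated and in the combination against indisulam. HSP90AB1 had log2 ratios between -0.29 and 0.08 against untreated, and HSP90AA1 reached 0.84. The tubulin genes were listed because tubulin was a blot control. Of the 9 reference genes listed outside the members, 5 were called in at least 1 comparison, all of them tubulin genes. The lists were chosen with earlier results of these data known, so these genes are not an independent comparison. All of these are RNA values, whereas the blots measured protein. Immediate early genes, which respond within minutes to handling and to growth signals, differed between the same libraries. In the combination against untreated, 5 of 7 were called lower (FOS at -3.53, FOSB, JUNB, EGR1 and IER2) and ATF3 was called higher at 2.08, while JUN had -0.24. EGR1 had 247, 287, 146 and 37.0 CPM, so that the combination stood apart from the other libraries, and the part of such differences in the member values was not tested.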

How the data were processed

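Poly(A)-selected stranded RNA libraries of SUM159 cells, 1 per condition, were analysed. Per the labels, the authors' processing notes name TopHat2 2.1, HTSeq and the GRCh38 build, without roles. The annotation release and the strand setting of the counting are not given in the sources used here. The deposited files hold raw counts of reads per Ensembl gene, from which gene totals, CPM and log2 ratios were computed. Rows that name no gene (not uniquely aligned, 6.46 to 6.84% of reads, ambiguous, 2.41 to 2.63%, and outside features, 0.615 to 0.694%) were left out of totals and tests. Names and gene models came from GENCODE 44 on GRCh38, which named 14111 of the 14269 tested genes, and upstream sequences from RefSeq.

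Counts were divided by the gene total of the library, after the study's relative total size factor, and 1 scaled count was added before the log2 ratio. Intervals are 95% Poisson intervals by the normal approximation, and exact binomial (Clopper-Pearson) intervals were used for read ratios. Intervals and the floor of 3 reads, 0.180 to 0.239 CPM per library, cover counting error only. Genes with a mean of at least 1 CPM were tested, and calls needed a 2-fold change. No p-value was computed. The script was tested on simulated data. Alternatives were TMM, upper-quartile and median-of-ratios factors (edgeR 4.0.16 in R 4.3.3), totals without mitochondrially encoded genes, other pseudocounts, filters, intervals and folds, and summing HSPA1A with HSPA1B. Python 3.11.15 with numpy 2.4.6, pandas 2.3.3 and scipy 1.17.1 was used.

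The members and gene lists were chosen with earlier results of these data known. Named genes are all members, the heat shock factors, the reference and immediate early genes, list genes called at a mean of at least 5 CPM, and the gene of highest level in each list, except 1 gene that is not reported here. The 3 genes of nearest pattern to each member were taken by Euclidean distance over the log2 ratios, with 1 gene that marks sex left out. BAG3, HSPA6, HSPE1-MOB4, CRYAB and the cell markers are named outside that rule or after their values were seen.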

Additional observations from a re-analysis of the deposited data

Results flagged for a closer look

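HSPA8 was the one member with an indisulam effect in opposite directions, at a log2 ratio of 0.658 for indisulam against untreated and of -0.547 for the combination against palbociclib. Both counting intervals excluded a ratio of 1, but each value rests on 1 library per condition, and the difference between them was not tested against the spread between cultures. That difference is the departure from additivity already given for HSPA8, not a separate result.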

How the results depend on the processing

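At a threshold of 1.5-fold the members called were 4 for palbociclib against untreated (HSPA1A and HSP90AA1 added), 3 for indisulam (HSPA8 higher and HSPB1 lower added), 3 for the combination against untreated (HSPA8 and HSP90AA1 added), 3 for the combination against palbociclib (HSPA1A, HSPA1B and HSPB1, all lower) and 4 for the departure from additivity (HSPA1A, HSPA1B and HSPH1 added, all below the sum). None was called for the combination against indisulam. All tested genes called at 1.5-fold were then 3573, 4510, 6085, 4713, 3196 and 2732, for palbociclib, indisulam and the combination against untreated, the combination against palbociclib and against indisulam, and the departure. The main counts were 1558, 2162, 3360, 2429, 1181 and 1148, and with a filter of 5 CPM, which tests fewer genes, 834, 1212, 2104, 1396, 544 and 583. Without a filter the combination against indisulam had 2133 calls. Of the genes of all lists, 17 were called in the combination against untreated and 44 at 1.5-fold. The scalings, pseudocounts and exact intervals tried left every member on its side of the 2-fold threshold, and no other scaling shifted the median of all genes by over 0.1.

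Of 360 member values recomputed under other scalings and pseudocounts, 317 stayed within their counting interval, 43 left it and no called value changed sign. In 9 cases a value near 0 changed sign, for HSPA1A under indisulam (0.01, and -0.06 with TMM factors), HSPE1 in the combination against untreated (0.06, and -0.04) and HSPD1 in the combination against palbociclib (0.04, and -0.06). No paired analysis was possible because each condition was 1 library, and for the same reason no replicate could be left out. The alternative with unique stretches was added after seeing the data.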

Other observations

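By Euclidean distance over the 3 log2 ratios to untreated, among 8036 genes with a mean of at least 20 CPM, the genes nearest to HSPA8 were SVIL (distance 0.069), PLEKHA6 (0.186) and TAPBPL (0.292). SVIL had log2 ratios of 1.31, 0.70 and 0.84 for palbociclib, indisulam and the combination. Nearest to HSPH1 were PTX3 (0.121), URB2 (0.146) and ROR1 (0.188). HSP90AA1 had PTRH2 (0.072), ATP6AP2 (0.083) and ACER3 (0.084) nearest to it, and HSPB1 had HADHB (0.046), SKA2 (0.087) and SCARA3 (0.10). For the other members the nearest genes were NACC2 (0.096) for HSPA1A, HLA-B (0.055) for HSPA1B, ARHGAP35 (0.008) for HSP90AB1, NDUFAF7 (0.019) for HSPD1, RNF41 (0.031) for HSPE1 and TBKBP1 (0.018) for DNAJB1. None of the genes named here was another heat shock gene of the set. HSPA1A, at a mean of 15.9 CPM, was below the filter and could not be returned. With so many genes searched and few named, this absence says little about the members. The distances rest on 3 ratios that share the untreated library and describe these libraries only.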
